A study of Homo sapiens with 3 samples.

Results

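The MYC network and the zinc finger gene MAZ were followed in Huh7 cells, an established human hepatoma line, on 3 Agilent one-colour arrays. The members were 10 genes, namely MYC, MYCN, MAX, MXD1, MXD4, MXI1, MNT, MGA, MLX and MAZ, out of 19740 gene symbols that the array could name. They were chosen by gene family and on measured values of these same arrays, since MAZ was selected because both of its probes were higher at 50 μM, so that the levels of MAZ at that dose are a description and carry no test. The probes were found through their RefSeq accessions, which gave 19 probes in 28 spots. Each of the 10 genes had at least 1 probe, 16 probes were well above background on all 3 arrays, 2 on none and 1 on a single array.

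The 3 groups were Huh7 cells left untreated, cells given chlorogenic acid (CA), a plant polyphenol, at 50 μM, and cells given CA at 100 μM, the last 2 for 24 h, with 1 array per group. All were grown in DMEM with fetal calf serum and antibiotics, and the comparisons ask how the transcripts of these genes stood after CA, in a study of CA as an inducer of tumor cell differentiation in which MYC served as a gene of the poorly differentiated state. With 1 array per group no replicate error could be measured, so each ratio below compares 2 arrays and not 2 conditions with their spread, and no p-value is given. The labels give no treatment for the untreated cells, whereas the methods of the study name the solvent DMSO as the reference for untreated controls, so whether this array received DMSO is not settled here. A bulk culture cannot tell fewer cells with a transcript from less transcript per cell.

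The signal is the background-subtracted intensity of a probe in arbitrary units. Its error, called the scanner error below, is a value modelled by the scanner software and not measured between spots. Relative to the signal it was 0.10 for the bright MYC probe on each array. Ratios are log2 differences after each array had been divided by its 75th percentile, which lay at 1059, 1207 and 1249 units in untreated cells and with the lower and the higher dose of CA. A second, smaller error came from probes printed 10 times on each array. The SD of their log2 ratios between spots had a median of 0.13 among the dimmest of 4 signal classes and of 0.05 among the brightest at CA 50 μM, and it covers printing and scanning only. Areas in which dim spots were bright on 1 array alone held 5.27% of the gene spots of the CA 100 μM array, 0.151% of the untreated array and 0.0441% of the CA 50 μM array. Of the 28 member spots, 1 MYC spot on the CA 100 μM array lay in such an area. Of 10 hepatocyte and hepatoma markers, 8, 9 and 9 were well above background on the 3 arrays, where HNF4A was so at CA 50 μM alone and TF at CA 100 μM alone. Among markers of other cells, 3, 3 and 4 of 5 fibroblast, 3 of 4 endothelial, 5 of 5 leukocyte and 1 of 4 basal epithelial genes passed on the 3 arrays. In the same order of arrays, their summed signals were 545, 622 and 709 for fibroblast, 799, 1092 and 1045 for endothelial, 829, 1035 and 987 for leukocyte and 322, 110.1 and 775 for basal epithelial markers, against up to 112826 for a single hepatocyte marker. Their part in the results was not tested.

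MYC and MYCN are transcription factors that pair with MAX and bind the E-box CACGTG, where they raise genes for ribosome production, metabolism and the cell cycle. MXD1, MXD4, MXI1 and MNT compete for MAX at the same sites and recruit the SIN3 corepressor, and MGA ties MAX to a Polycomb complex called PRC1.6. MLX pairs with the glucose-sensing factors MLXIP and MLXIPL rather than with MYC. MAZ, the MYC-associated zinc finger protein, is not part of the MAX network but was named for binding GC-rich sequence near MYC, and MYC itself is frequently overactive in liver cancer.

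Among the members, the E-box letters CACGTG stood in the 250 bases before the annotated start of 3 of the 9 genes for which a sequence was at hand, namely MXD4, MNT and MLX, whereas 6.33% of 27305 genes held them. MYC had no entry. The MAZ box GGGAGGG, read on either strand, stood in 5 of the 9 against 23.5% of all genes, and where a gene has several starts the first listed window was used for these shares. Among the 5, the window of MAX lies 761 bases inside the annotated span of MAX, and that of MYCN overlaps the gene MYCNOS. The window of MAZ, also among them, lies inside its own gene as given below. Among the lists used below, 3 of 12 MYC-repressed (25%) and 9 of 49 MYC-activated genes (18.4%) with a sequence held the E-box, and 0 of 4 MAZ relatives. The MAZ box stood in 3 of 4 MAZ relatives (75%), 5 of 10 PRC1.6 genes (50%) and 2 of 16 MYC cofactors (12.5%), which are small numbers of genes. Median GC content was 70.4% in the members and 57.6% over all genes, and its part in these shares was not tested. The windows of the 3 E-box genes are printed because all 5 of their probes had a log2 ratio above 0 at CA 50 μM, although 2 of the 5 came out at -0.01 under normexp background correction. Of all measured probes 48.2% were above 0 there. Among members without an E-box, MYCN and MAZ were above 0 too, MXD1, MXI1 and MGA below, and MAX in both directions. A link between the E-box and the ratios was not tested. Sequences are from RefSeq, build GRCh38.p14, 5′ to 3′ on the strand of the gene, with capitals for CACGTG and for GGGAGGG or its reverse CCCTCCC. They lie at chr4:2262110-2262359 on the minus strand for MXD4, chr17:2401061-2401310 on the minus strand for MNT and chr17:42566850-42567099 on the plus strand for MLX, directly before each gene.
MXD4: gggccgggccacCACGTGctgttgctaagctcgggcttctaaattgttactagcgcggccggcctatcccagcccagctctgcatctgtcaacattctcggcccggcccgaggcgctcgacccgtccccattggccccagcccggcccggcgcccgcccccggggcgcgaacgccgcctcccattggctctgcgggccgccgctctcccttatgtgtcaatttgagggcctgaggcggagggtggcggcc
MNT: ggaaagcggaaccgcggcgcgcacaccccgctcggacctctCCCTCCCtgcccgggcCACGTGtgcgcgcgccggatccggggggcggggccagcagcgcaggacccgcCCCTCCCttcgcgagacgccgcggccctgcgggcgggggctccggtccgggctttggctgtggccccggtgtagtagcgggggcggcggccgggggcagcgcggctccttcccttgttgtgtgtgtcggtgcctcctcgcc
MLX: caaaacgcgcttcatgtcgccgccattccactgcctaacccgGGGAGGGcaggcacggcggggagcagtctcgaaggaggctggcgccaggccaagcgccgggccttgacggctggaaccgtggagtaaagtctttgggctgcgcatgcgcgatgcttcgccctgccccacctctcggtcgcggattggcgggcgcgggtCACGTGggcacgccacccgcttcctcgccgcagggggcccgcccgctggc

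The window of MAZ at chr16:29806279-29806528, on the plus strand, held 0 E-boxes and 4 MAZ boxes, of which the first 2 overlap. Its GC content of 88.8% was above that of 99.96% of the genes with a sequence, and the other 8 members ranged from 55.6 to 78% in their first window. This window starts 155 bases inside the annotated span of MAZ, ahead of the start site used by the table, and the 23 bases that hold 3 of the 4 boxes, at chr16:29806289-29806311, are shown as the letters that MAZ itself is known to bind.
MAZ: CCCTCCCTCCCtcgcgCCCTCCC
A match of letters is not a binding site, and no binding was measured.

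MAZ, chosen for its values at CA 50 μM, had the highest ratios of the members there, although its second probe lay no further above an MXD4 probe (0.93) than the scanner error and under normexp (0.35) lay below an MNT probe (0.53). Probe A_23_P33433 gave 120.1 ± 12.3 units in untreated cells, 405 ± 40.6 at CA 50 μM and 221 ± 22.3 at CA 100 μM. Probe A_33_P3266410 gave 39.0 ± 4.93, 93.2 ± 9.81 and 66.1 ± 7.45 units. In both, the CA 50 μM array was highest, the untreated array lowest and the CA 100 μM array between them. The log2 ratios to untreated were 1.56 and 1.07 at CA 50 μM, that is 2.96-fold and 2.10-fold, with a median spot SD of 0.13 in their signal class and scanner errors of 0.21 and 0.24. At CA 100 μM they were 0.64 and 0.52, or 1.56-fold and 1.44-fold. Between the doses the ratio of CA 100 μM to CA 50 μM was -0.92 and -0.55.

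The first MAZ probe was reached or passed by 13 probes (0.0579%, itself included) of 22471 measured at CA 50 μM, and the second by 100 (0.445%). The 2 probes differed in log2 ratio by 0.50 with the lower dose and by 0.12 with the higher. Dim probes passed 2-fold more often than bright ones, since the share at least that much higher was 1.69% in the dimmest of 5 equal groups of signal and 0.0445% in the brightest. It was 0.757% in the group next to the dimmest, which held probe A_33_P3266410, and 0.490% in the middle group, with A_23_P33433. The second probe fell below 2-fold at CA 50 μM under 4 of 10 alternatives, and normexp put CA 100 μM above CA 50 μM in both probes. None of the MAZ spots carried an outlier or background flag or lay in a disturbed area.

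Over all members, 2 of 16 measured probes, both of MAZ, were higher by 2-fold or more at CA 50 μM and 0 were lower by as much, where 0.614% of all 22471 measured probes were higher and 0.458% lower. Nothing is read from the first count, since it is what the choice rested on. Just inside the 2-fold line lay the second MAZ probe at 1.07, and just outside it an MXD4 probe at 0.93. The median of the 16 probes was 0.13, against -0.01 over all measured probes with an SD of 0.33, and 10 of 16 were above 0 against 48.2% of all. Both values hold the MAZ probes, and nothing is read from them either. Without MAZ the median was 0.05, with 8 of 14 probes above 0. At CA 100 μM, 0 of 16 member probes passed 2-fold in either direction, where 0.638% of 22267 probes were higher and 0.256% lower. Their median was 0.07, or 0.04 without MAZ, against -0.02 over all probes. Between CA 100 μM and CA 50 μM the count was again 0 of 16 in each direction, with 0.681% of 22453 probes higher and 0.174% lower.

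**Figure D1:**
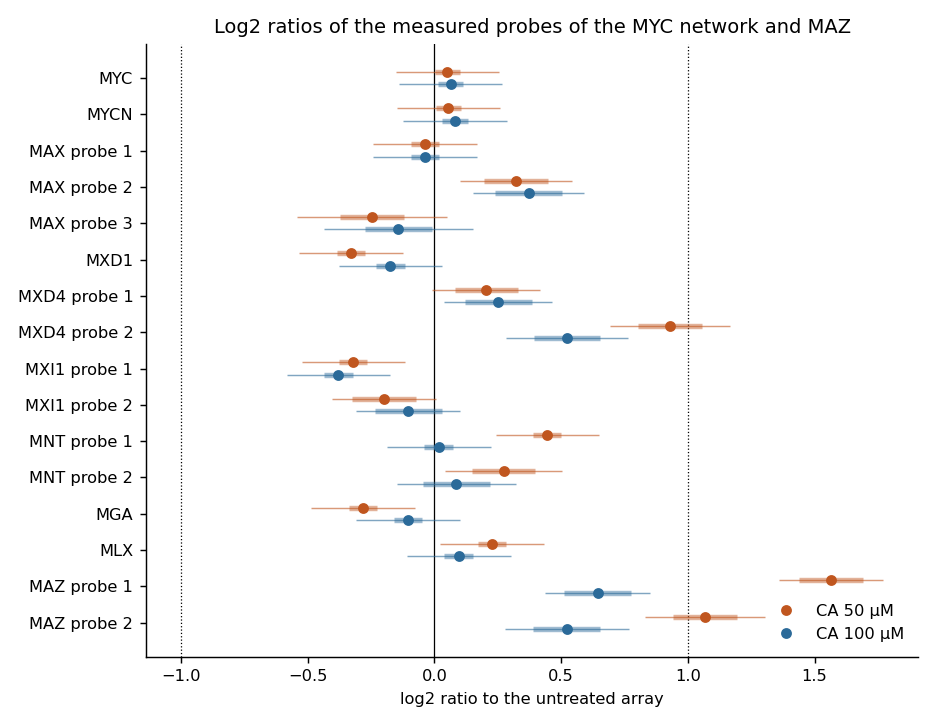
Log2 ratio to the untreated array (horizontal axis) of the 16 member probes well above background on all 3 arrays, at CA 50 μM and CA 100 μM. Thick bars are the median spot SD of the probe's signal class and thin bars the scanner error, neither of which holds any biological error, and dotted lines mark 2-fold. The MAZ probes at CA 50 μM, at 1.56 and 1.07, are the 2 points past the line.

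Larger than 2 spot SDs were the ratios of 10 of the 16 probes at CA 50 μM, 7 higher and 3 lower, against 56.4% of all measured probes. The same 10 of 16 passed the scanner error, against 42.9% of all. Both MAZ probes, chosen for their rise at this dose, are among the 10 and among the 7 higher. Nothing is therefore read from these counts at CA 50 μM. At CA 100 μM, 6 of 16 passed 2 spot SDs, 4 higher and 2 lower, against 42.3% of all probes. At CA 50 μM these 10 were both MAZ and both MNT probes, 1 probe each of MAX and MXD4 and the MLX probe on the higher side, and MXD1, MGA and 1 MXI1 probe on the lower.

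MYC itself was measured by 1 probe, A_23_P215956, printed 10 times. Its spots ranged from 5213 to 6106 units in untreated cells, from 6603 to 7179 at CA 50 μM and from 6579 to 7623 at CA 100 μM. After scaling, the log2 level was 2.46 ± 0.06 (SD over 10 spots) in untreated cells, 2.51 ± 0.04 with the lower dose of CA and 2.52 ± 0.06 with the higher, and the spots of the 3 arrays overlapped. Taken spot by spot, the log2 ratio to untreated came to 0.05 ± 0.05 at CA 50 μM, with 8 of 10 spots above 0, and to 0.06 ± 0.07 at CA 100 μM, with 9 of 10. The exception at CA 100 μM was the spot in a disturbed area, at -0.07, and the other 9 spots gave 0.08 ± 0.06. Between the doses the ratio was 0.01 ± 0.07. The spots are copies of 1 probe on 1 array and share its RNA, so these SDs hold no error between cultures. Under normexp the CA 100 μM ratio turned to -0.21, while quantile normalization raised the CA 50 μM ratio to 0.13. The study itself reported lower MYC transcript and protein in Huh7 cells given CA, including a several-fold decrease by microarray at 50 μM. Why the ratio given here differs from that report was not tested.

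**Figure D2:**
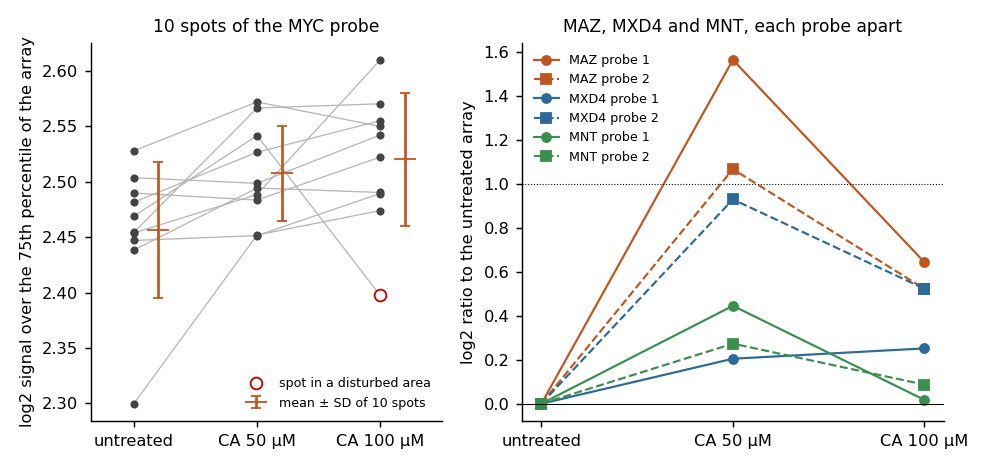
Left, log2 signal over the 75th percentile of the array (vertical axis) for each of the 10 MYC spots, joined by position, with the mean ± SD beside them and the spot of a disturbed area in red. Right, log2 ratio to untreated (vertical axis) of each probe of MAZ, MXD4 and MNT over the 3 arrays. The MYC spots overlap between arrays, whereas both MAZ probes peak at CA 50 μM.

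MYCN, the neuroblastoma relative of MYC, lay close to MYC in its ratios. Probe A_24_P94402 gave 6356 ± 636, 7531 ± 753 and 7934 ± 793 units in that order of arrays, and log2 ratios to untreated of 0.06 and 0.08. These were within the scanner error of 0.20, and normexp gave -0.04 and -0.22 in their place.

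MAX, the shared partner, had 3 measured probes that did not move together. The brightest, A_23_P205549, gave 1115 ± 112, 1239 ± 124 and 1281 ± 128 units, with ratios of -0.04 at each dose. Probe A_23_P151662 gave 64.1 ± 7.03, 91.3 ± 9.70 and 97.7 ± 10.4 units and ratios of 0.32 and 0.37. The dimmest, A_23_P436138, gave 29.0 ± 4.07, 27.9 ± 4.14 and 31.0 ± 4.55 units and ratios of -0.25 and -0.14. The probes thus spanned 0.57 in log2 ratio with the lower dose and 0.51 with the higher, so that no direction can be given for MAX. Under normexp the brightest probe turned to 0.02 at CA 50 μM and the dimmest to 1.83 at CA 100 μM.

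Of the repressor partners, the MXD and MXI1 genes went in different directions. MXD1, which rises in many cells as they differentiate, gave 1228 ± 123, 1114 ± 111 and 1284 ± 128 units by probe A_24_P379750, the lowest at CA 50 μM, with ratios of -0.33 and -0.17. Its other probe was not well above background on any array, at 8.21, 10.9 and 8.65 units. MXI1, known to dampen MYC function, gave 1384 ± 138, 1264 ± 126 and 1256 ± 126 units by probe A_23_P161399, with ratios of -0.32 and -0.38. Its second probe gave 202 ± 20.4, 200.4 ± 20.3 and 222 ± 22.4 units and ratios of -0.20 and -0.10, while the remaining one was at background at 2.77, 3.01 and 3.25 units. The 2 measured MXI1 probes lay below 0 at both doses, except that under normexp the second turned above 0 at CA 100 μM.

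MXD4, a further MAX-binding repressor, had ratios to untreated above 0 by both probes. Probe A_24_P234732 gave 36.7 ± 4.60, 79.7 ± 8.42 and 62.2 ± 6.95 units, highest at CA 50 μM, with ratios of 0.93 and 0.52. Only 0.908% of all measured probes were as high at CA 50 μM, while this probe belonged to the dimmest of the 5 groups of signal. Probe A_23_P423695 gave 77.1 ± 8.10, 101 ± 10.5 and 108 ± 11.2 units, highest at CA 100 μM, and smaller ratios of 0.20 and 0.25. At CA 50 μM the ratio of this probe lay within its scanner error of 0.21. The probes differed by 0.73 at CA 50 μM, and normexp brought the first to 0.34 and the second to -0.01 there. At CA 100 μM normexp put them at 1.78 and 1.35, so that A_24_P234732 was then highest at CA 100 μM.

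MNT, which is widely expressed and opposes MYC at shared sites, was highest at CA 50 μM by both probes. Probe A_23_P341443 gave 1673 ± 167, 2598 ± 260 and 1997 ± 200 units in that order of arrays. Its ratios were 0.45 and 0.02, and the first exceeded both its spot SD of 0.05 and its scanner error of 0.20. Probe A_33_P3246733 gave 52.2 ± 6.10, 71.9 ± 7.88 and 65.4 ± 7.48 units and ratios of 0.27 and 0.09. Normexp kept the brighter probe at 0.53 at CA 50 μM, but turned it below 0 at CA 100 μM and left the dimmer at -0.01 at CA 50 μM.

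MGA, the giant partner of MAX in PRC1.6, gave 1324 ± 132, 1242 ± 124 and 1453 ± 145 units by probe A_23_P37654, lowest at CA 50 μM, with ratios of -0.28 and -0.10. Probe A_33_P3330323 of the same gene was well above background at CA 100 μM alone, at 16.0 ± 3.45 units against 5.35 ± 2.67 in untreated cells and 11.3 ± 3.01 at CA 50 μM. This put CA 100 μM at least 1.11-fold higher than untreated and at least 1.23-fold higher than CA 50 μM, a bound set by the dimmest signal well above background on the darker array. At CA 100 μM the 2 probes of MGA therefore did not give 1 direction. MLX gave 1670.3 ± 167, 2229 ± 223 and 2106 ± 211 units, highest at CA 50 μM, with ratios of 0.23 and 0.10, of which the second turned to -0.05 under normexp.

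Ordered by array, the pattern seen for MAZ, untreated lowest and CA 50 μM highest, held for 6 of the 16 member probes and for 24.0% of the 22114 probes well above background on all 3 arrays. These 6 were both MAZ probes, both MNT probes, the MLX probe and 1 MXD4 probe. Without MAZ, on which the pattern was defined, it held for 4 of 14 (28.6%), near the share of all probes. CA 100 μM lay between the other arrays in 10 of the 16, against 50.5% of all probes. Both MAZ probes, chosen for their rise at CA 50 μM, are among the 10, so nothing is read from this count. Since both ratios to untreated share 1 array, the 2 doses are not independent of each other.

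**Figure D3:**
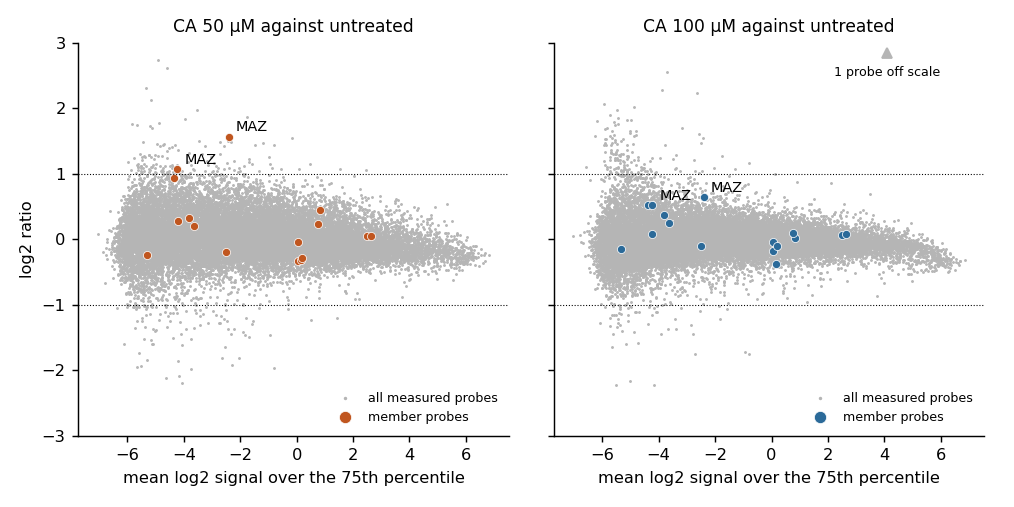
Log2 ratio to untreated (vertical axis) against the mean log2 signal over the 75th percentile (horizontal axis) of every probe well above background on both arrays, at CA 50 μM (left) and CA 100 μM (right), with member probes in color and dotted lines at 2-fold. The spread of all probes widens to the left, toward dim signal, and 1 probe at CA 100 μM is off the scale.

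The 4 further genes of the network had no probe 2-fold changed. Of all measured probes, 0.614% were higher and 0.458% lower by as much at CA 50 μM. The shares at CA 100 μM were 0.638% and 0.256%. MLXIP, a glucose-sensing partner of MLX, gave 272, 436 and 467 units and ratios of 0.49 and 0.54 by its brighter probe, whereas the dimmer gave 0.13 and 0.08. MLXIPL, the liver form of that partner known as ChREBP, had ratios of 0.26 and -0.10. MYCL, a further MYC gene, had -0.19 and -0.01, and the repressor MXD3 -0.07 and -0.10 by its brighter probe. The dimmer MXD3 probe gave 0.17 and 0.94, the latter from a spot in a disturbed area. The median of the 4 genes, 0.10 and -0.05, turned to -0.06 and 0.52 under normexp.

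Genes that MYC is known to activate were taken as a list of 62, of which 59 were measured, each by its brightest probe. The median of their log2 ratios was 0.07 with the lower dose and 0.04 with the higher, against -0.04 and -0.03 over 14700 and 14640 genes taken the same way. TFAP4, a MYC-induced transcription factor, passed 2-fold at CA 50 μM with a ratio of 1.15 but had -0.28 at CA 100 μM, from 27.4, 69.5 and 26.6 units. No other gene of the list passed 2-fold against untreated, and TFAP4 was also the one past it between the doses, at -1.43. Of all genes taken the same way, 0.456% were at least 2-fold higher and 0.517% lower at CA 50 μM. At CA 100 μM these shares were 0.451% and 0.205%, and between the doses 0.586% and 0.0886%. Nothing is read from this 1 gene. The next highest at CA 50 μM were SLC1A5, a glutamine transporter, at 0.94 and 0.47, and SRM, a spermidine synthase, at 0.62 and 0.33. The lowest were PTMA at -0.45 and -0.49, the mitochondrial chaperonin gene HSPE1 at -0.30 and -0.31, and FBL, which encodes the nucleolar methylase fibrillarin, at -0.25 and -0.13, the latter from a spot in a disturbed area. For PTMA, which has processed pseudogenes, the other 4 probes gave 0.01 to 0.14 at CA 50 μM. Of the 59, 35 were above 0 with the lower dose and 38 with the higher, where 43.7% and 42.3% of all genes were. The median at CA 100 μM turned to -0.16 under normexp. EIF5A was well above background on the CA 50 μM array alone, CCND2 on none, and PHB2 had no probe.

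Genes that MYC is known to repress numbered 17, all measured, with medians of -0.07 and -0.03 and no gene past 2-fold. Beside this stand the shares of all genes, 0.456% higher and 0.517% lower at CA 50 μM, and 0.451% and 0.205% at CA 100 μM. The highest were the cell cycle inhibitor CDKN1A (p21) at 0.52 and 0.36, from 36.2, 59.3 and 54.7 units, the hepatocyte factor CEBPA at 0.41 and 0.24, and KLF6 at 0.29 and 0.20. The lowest were the stress gene GADD45B at -0.54 and -0.40, the ferritin gene FTH1 at -0.27 and -0.40, and the heme oxygenase HMOX1 at -0.21 and -0.11. The first value of each pair is CA 50 μM against untreated and the second CA 100 μM against untreated, here and below.

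Cofactors of MYC and the enzymes that turn it over gave 23 measured genes of 24, with medians of 0.11 and 0.03. Of these, 19 were above 0 with the lower dose and 12 with the higher, beside the same 43.7% and 42.3% of all genes. HCFC1, a MYC-binding host cell factor, led with 0.80 and 0.42, ahead of the helicase RUVBL2 at 0.48 and 0.29 and the ubiquitin ligase gene FBXL14 at 0.43 and 0.14. The chromatin gene BPTF had -0.23 and -0.15, and CCNT1, the cyclin of the elongation factor P-TEFb, -0.08 and -0.11.

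The medians of the corepressor and Polycomb partners, by the brightest probe of each gene, were close to 0. The 12 SIN3 genes had medians of -0.02 and -0.01, from the highest, BRMS1 at 0.56 and 0.35 and ARID4A at 0.07 and 0.12, to the lowest, SAP30 at -0.16 and 0.00 and SIN3B at -0.10 and -0.11. ARID4A had its CA 100 μM spot in a disturbed area. Both measured BRMS1 probes were above 0 at CA 50 μM, the second at 0.74. RBBP4 had 0.01 by its brightest probe there, but its other probes gave 0.81, 0.63 and -0.07. The 10 PRC1.6 genes had medians of -0.02 and 0.01, the latter -0.08 under normexp and -0.01 after centring on the median. L3MBTL2, a chromatin reader of that complex, was highest at 0.65 and 0.32, from 90.5, 161 and 133 units, followed by the ubiquitin ligase RNF2 at 0.16 and 0.06, whose second probe gave -0.42 at CA 50 μM. YAF2 at -0.32 and -0.18 and the repressor E2F6 at -0.25 and -0.05 were lowest, while the other E2F6 probes gave 0.05 and 0.50 at CA 50 μM.

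Of 8 glucose-responsive targets of the MLX partners 6 were measured, with medians of -0.13 and -0.12, the second of which turned to 0.07 under normexp. G6PC1, the glucose-6-phosphatase of liver, had -0.36 and -0.20, and FASN, the fatty acid synthase, -0.26 and -0.25, each with its CA 100 μM spot in a disturbed area. PKLR, the liver pyruvate kinase, had 0.08 and -0.18. TXNIP, the classic glucose-induced gene, had -0.05 and 0.43, from 1254, 1386 and 1999 units, and stands among the MYC-repressed genes too.

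**Figure D4:**
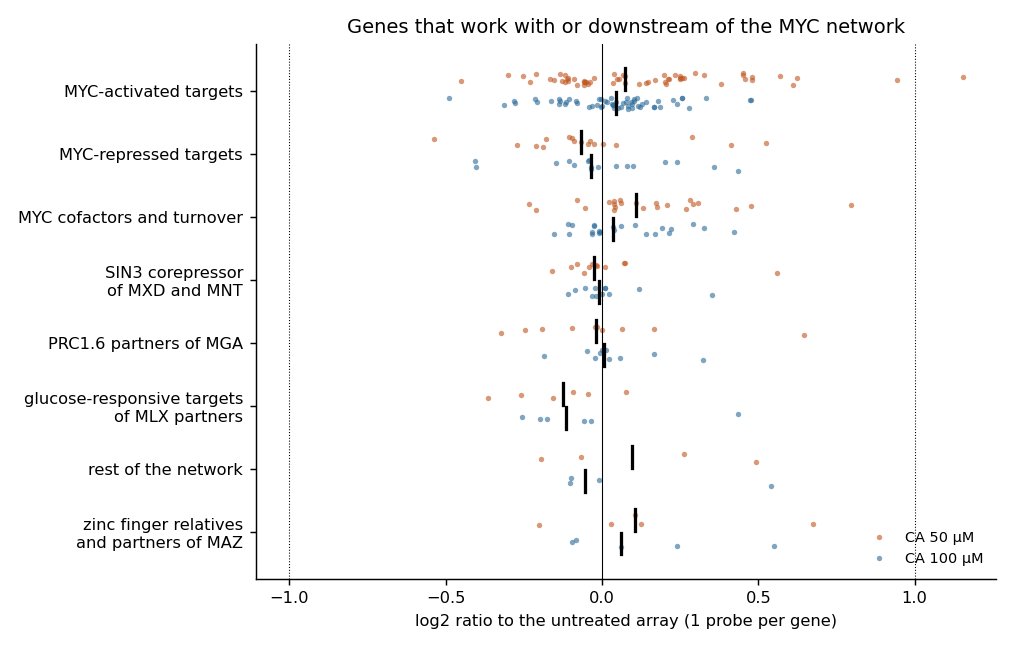
Log2 ratio to untreated (horizontal axis), 1 probe per gene, for the lists of genes that act with or downstream of the network, at CA 50 μM and CA 100 μM. Black bars are list medians, which lie between -0.13 and 0.11, and dotted lines mark 2-fold, passed by TFAP4 alone.

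Zinc finger genes related to MAZ or binding with it were compared for the same reason. PATZ1, a close relative of MAZ, gave 49.8, 90.6 and 85.9 units and ratios of 0.67 and 0.55, the highest of the 5. VEZF1, which binds similar sequence, had 0.12 and 0.24, CTCF 0.11 and 0.06, SP1 0.03 and -0.08, and SP3 -0.20 and -0.10. The median of the 5 was 0.11 and 0.06, the latter -0.01 under normexp.

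By position on chromosome 16, the gene directly before MAZ with a probe is KIF22, a kinesin of mitosis. Its 2 probes, at 2226 and 1418 units in untreated cells, gave ratios of 0.25 and 0.83 with the lower dose and 0.10 and 0.42 with the higher. The other 2 genes on that side, ZG16 and C16orf54, were lower at CA 50 μM, at -0.31 and -0.36. On the far side PRRT2 had 0.01, PAGR1 -0.43 and MVP -0.34 at CA 50 μM. None of the 6 neighbours reached 2-fold, where 0.614% of all measured probes were higher and 0.458% lower by as much at CA 50 μM.

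The 5 genes whose ratios at both doses were nearest to the mean of the MAZ probes, 1.32 and 0.58, were AP4M1, FAM215A, CHMP1A, ZNF827 and PLK1. They were found among the probes well above background on all 3 arrays, by Euclidean distance over the 2 ratios. Their distances ran from 0.06 for AP4M1 to 0.08 for PLK1, which is less than the 0.51 between the MAZ probes themselves. All 5 probes were dim, from 15.4 to 28.2 units in untreated cells. Other probes gave smaller ratios at CA 50 μM for AP4M1 (0.41), CHMP1A (0.33) and PLK1 (0.76). With 3 arrays such likeness rests on 2 numbers per probe.

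Reference genes showed what ratio the arrays gave for transcripts often taken as steady. TBP had -0.05 and -0.02, GAPDH 0.21 and 0.03, and the 2 ACTB probes -0.27 and -0.39 and 0.28 and 0.01. The GAPDH value at CA 100 μM included 1 spot in a disturbed area.

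**Figure D5:**
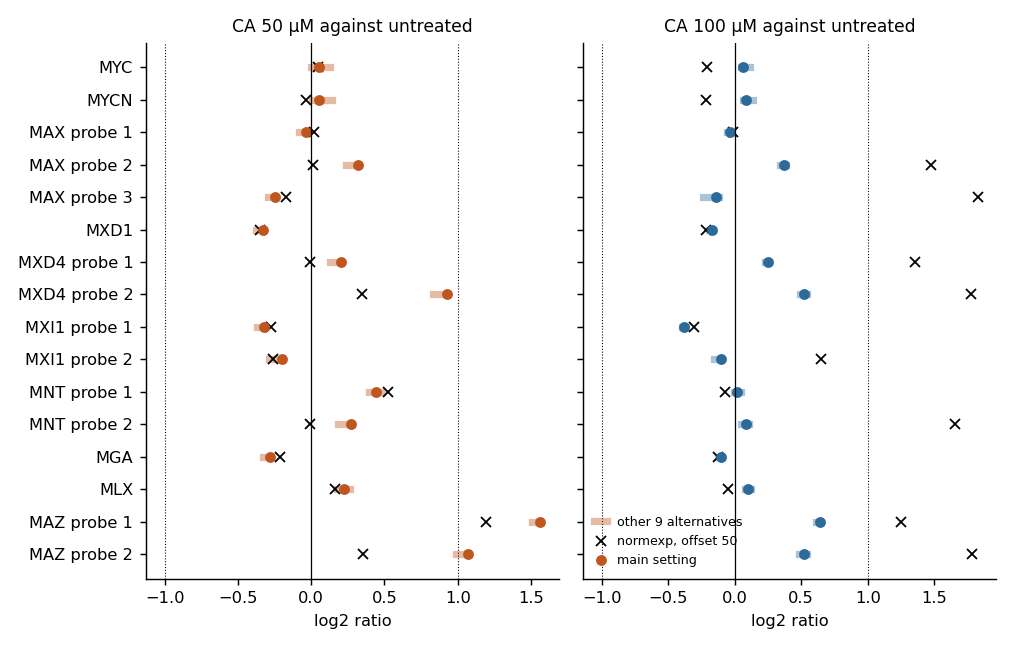
Log2 ratio to untreated (horizontal axis) of the 16 member probes under the main setting (points), under normexp background correction (crosses) and over the other 9 alternatives (bars), at CA 50 μM (left) and CA 100 μM (right). The bars stay near the points, whereas at CA 100 μM normexp moves dim probes up, the MAZ probes to 1.25 and 1.78.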

How the data were processed

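The authors put Cy3-labelled RNA of 3 Huh7 groups on whole-genome Agilent arrays, 1 per group. Groups follow the treatment label. The authors extracted spot values with Agilent Feature Extraction 11.0.1.1, per the labels, and the deposited files hold intensity values in arbitrary units, background-subtracted and not scaled between arrays. A deposited table of log2 values, whose method is not given in the sources used here, served as an alternative. Its 3 columns share their quartiles, at 2.97, 6.23 and 9.68, and follow the log2 intensity. Columns are also given a common distribution by quantile normalization, so these 2 alternatives may not be separate from each other.

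Gene spots without a feature outlier flag were used. Spots were averaged per probe on the log2 scale after subtraction of the 75th percentile. The scanner software's flag for signal well above background had to hold for 50% or more of a probe's spots, and ratios were formed only where this held on both arrays. Accessions named 25771 of 34127 probes (75.5%). Lists used the brightest probe of a gene, and each list and its named genes (the 3 highest and lowest at CA 50 μM, or 2 in lists under 15 genes, and all past 2-fold) followed a stated rule, of which 1 named gene is not reported here. The members, lists and rule were chosen with earlier results of these data known. No test was run, because each group had 1 array. The arrays shared 1 slide, so no slide block could be fitted, and the number of arrays limits the precision. A window of 17 rows and 7 columns counted as disturbed where at least 5, and at least 25%, of dim-probe spots were 4-fold brighter on 1 array. Python 3.11.15, numpy 2.4.6, pandas 2.3.3, R 4.3.3 and limma 3.58.1 were used, and the steps were checked on simulated data. The normexp alternative, with an offset of 50, took median spot and background intensities, the kind the deposited files give.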

Additional observations from a re-analysis of the deposited data

How the results depend on the processing

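Other scalings tried were normexp with an offset of 50, the deposited log2 values, cyclic loess, quantile normalization and median centring. Other selections were a filter on 1 array, no filter, and leaving out saturated spots, spots with a background flag or disturbed areas. For lists, averaging all probes of each gene was added, and for MYC the median over spots. No paired analysis was possible because each group had 1 array, and no replicate could be left out.

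At CA 50 μM, member probes at least 2-fold higher fell from 2 to 1 under quantile normalization, cyclic loess, normexp and the deposited log2 values, the second MAZ probe being the one lost, at 0.99 under quantile normalization and with the deposited values. The MYC ratio there was 0.13 under quantile normalization, 0.13 under cyclic loess and 0.13 with the deposited values, and the MYC-activated median was 0.16, 0.16 and 0.15, and 0.14 with all probes averaged. Normexp gave 1.19 and 0.35 for the MAZ probes at CA 50 μM. At CA 100 μM it gave 1.25 and 1.78 for the MAZ probes, -0.21 for MYC and -0.16 for the MYC-activated median, and it put 7 member probes at least 2-fold above untreated and 6 above CA 50 μM, as it did 7597 of all probes against untreated. It also turned the MAZ ratios of CA 100 μM to CA 50 μM to 0.06 and 1.43. It shifted the median of all genes by 0.22 at CA 100 μM and by 0.19 between the doses, and the cause was not tested. A filter on 1 array, or none, gave 1 member probe, of MGA, at least 2-fold higher at CA 100 μM. Nothing is read from it, since all 6 counts over all probes moved under each of these settings too. The deposited values gave 0.12 for MYC at CA 100 μM. Of 480 recomputed ratios of member probes, 434 moved by less than their spot SD, and 37 of the 46 that moved further did so under normexp. Under each change of filter or of spots left out, all 48 member ratios stayed within that SD. Those settings left most member spots as they were, so they say little on stability. Both MAZ probes stayed above 0 at both doses under all 10 alternatives, of which these settings could hardly move them. At CA 50 μM that sign is also what MAZ was chosen on. Dim signal, 39.0 to 120.1 units for MAZ in untreated cells, limits its precision.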
